A study of Mus musculus with 27 samples.

Results

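DNA methylation was compared between opposed times of the circadian day in C2C12 myotubes: the libraries taken 18 and 42 h after a serum shock against those taken 30 and 54 h after it. Times within each set lay 24 h apart and the sets lay 12 h apart, so that each set held 1 time from the first cycle (18 or 30 h) and 1 from the second (42 or 54 h). In both cycles the time of 18 or 42 h came 12 h before that of 30 or 54 h. A difference by phase therefore cannot be told apart here from a steady change with time since the shock. The libraries were assigned to sets by their time labels, and 12 of the 27 libraries of the series entered, 6 in each set. C2C12 is a mouse myoblast line whose cells fuse into multinucleated myotubes when serum is lowered. The cells of all 12 libraries were handled alike: differentiation in medium with 2% horse serum, then 50% horse serum for 2 h. The 4 times were 18, 42, 30 and 54 h, with 3 replicates each; cells without a shock were not analysed here. The labels do not say whether replicates came from separate cultures, so each p-value is set against a spread that may be technical only, the one between these samples. RNA was not analysed here, so neither the identity of the cells by expression nor the phase of their clock was checked.

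The circadian clock is a transcriptional feedback loop: CLOCK and BMAL1 (the product of Arntl) bind E-box sequences and drive the Per and Cry genes, whose proteins then inhibit them. A serum shock is used in culture to bring the clocks of many cells to a common phase. Cytosine methylation at CpG sites is set and kept by DNA methyltransferases and removed by way of TET oxidation or by dilution at replication, and a methylated promoter is usually a silent one. Reduced representation bisulfite sequencing (RRBS) reads methylation in short restriction fragments rich in CpG islands and gene starts.

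The deposited levels covered 917726 positions on the 19 autosomes, of which 875749 (95.4%) had a value in all 12 libraries. Joined wherever neighbours lay at most 100 bp apart, these positions formed 23464 runs, with a median of 23 positions and a median length of 244 bp. A run's level is the mean of its positions in percent, and a difference between sets is given in percentage points, as 18 and 42 h minus 30 and 54 h. By mean level, 13980 runs lay under 10%, 8836 between 10% and 90% and 648 over 90%. A run that touched the stretch from 1000 bp before to 500 bp after a RefSeq gene start is described as at the start of that gene. Of all runs, 14508 were at a start, 7311 within a gene body and 993 outside genes, while 652 runs on chromosome 18 had no start to be set against. Coverage is unknown, so no counting error can be given. Across runs, the Pearson correlation of 2 libraries averaged 0.953 within a time point, 0.953 between the times of 1 set and 0.953 between the sets, and no pair was above 0.966.

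Methylation of the autosomes as a whole differed by less than the spread between libraries. The mean over all runs was 19.3% in the lowest, 19.7% in the median and 19.9% in the highest library of 18 and 42 h, against 19.2%, 19.5% and 19.8% in those of 30 and 54 h. The sets overlapped over most of their ranges. The averages were 19.6% ± 0.209 at 18 and 42 h and 19.5% ± 0.275 at 30 and 54 h (SD, n = 6 each), a difference of 0.174 points (two-sided exact permutation test within replicate numbers, p = 0.213, adjusted over 4 means p = 0.426). Runs under 10% averaged 3.60% ± 0.219 at 18 and 42 h and 3.41% ± 0.178 at 30 and 54 h (exact permutation p = 0.176, adjusted 0.426). Runs of 10 to 90% averaged 39.6% ± 0.342 at 18 and 42 h and 39.4% ± 0.451 at 30 and 54 h (exact permutation p = 0.380, adjusted 0.506). Runs over 90% averaged 94.4% ± 0.191 at 18 and 42 h and 94.3% ± 0.365 at 30 and 54 h (exact permutation p = 0.556, adjusted 0.556). The mean was higher at 18 and 42 h than at 30 and 54 h on 19 of 19 chromosomes, by between 0.0275 points on chromosome 18 and 0.356 points on chromosome 14. The chromosomes share the same 12 libraries, so they are not independent of each other.

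**Figure D1:**
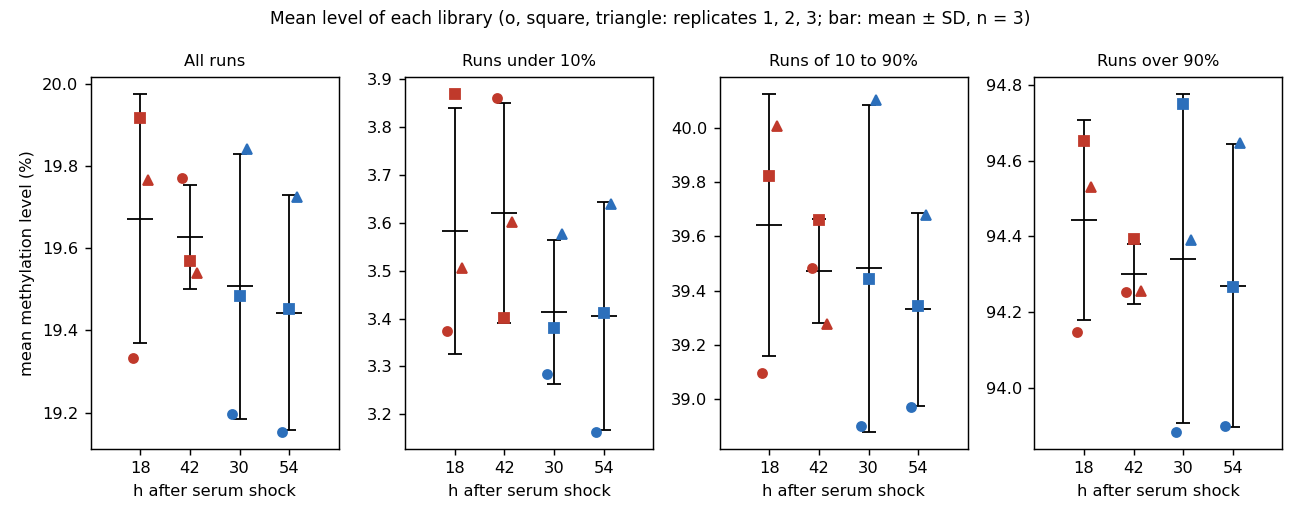
Mean methylation level in percent of each library (points; bars, mean ± SD, n = 3 per time) at 18, 42, 30 and 54 h, over all runs and over 3 classes of runs by level. In each panel the libraries of 18 and 42 h (red) and those of 30 and 54 h (blue) overlap, and the axes are cut to their narrow range and do not start at 0.

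No run passed the test for a difference between the sets. With limma on all 23464 runs, the replicate number as a block and Benjamini-Hochberg adjustment, 0 runs (0%) had an adjusted p under 0.05, and the smallest adjusted p was 0.260, at Hrh1. At an unadjusted p under 0.05 there were 1047 runs (4.46%), of which 606 (2.58%) were higher at 18 and 42 h and 441 (1.88%) lower. The share was 3.07% for runs under 10%, 6.64% for runs of 10 to 90% and 4.78% for runs over 90%. Among single positions, limma called 0 of 875749, and 33660 (3.84%) had an unadjusted p under 0.05. The 6 libraries of 18 and 42 h did not overlap the 6 of 30 and 54 h in 37 runs (0.158%), above them in 26 (0.111%) and below them in 11 (0.0469%). These differences were mostly small: 23 of the 37 runs had a mean level under 10%, their median absolute difference was 4.14 points, and 8 differed by more than 10 points.

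How large a difference could have gone unseen depended on the level and on the number of positions. The median standard error of a run's difference was 1.65 points. The 95% interval of the difference lay within 5 points either side of 0 in 49.3% of all runs and within 10 points in 78.0%. For runs under 10% these shares were 73.1% and 93.9%, for runs over 90% they were 40.6% and 87.5%, and for runs of 10 to 90% they were 12.3% and 52.0%. Intervals within 5 points were found in 13.9% of runs with 1 to 9 positions, 39.6% with 10 to 29, 69.6% with 30 to 59 and 86.6% with 60 or more. A difference over 10 points was seen in 508 runs and over 20 points in 58, and 49 of these 58 runs had fewer than 10 positions. Methylation of intermediate level in short runs is thus where the data set the widest limits.

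The cycles, which share no library, were also compared one by one. Limma called 0 of 23464 runs between 18 and 30 h (0%; 1091 runs, 4.65%, at an unadjusted p under 0.05, 2.59% higher and 2.06% lower; smallest adjusted p = 0.142) and 0 between 42 and 54 h (0%; 991 runs, 4.22%, unadjusted, 2.33% higher and 1.89% lower; smallest adjusted p = 1.00). The difference between the cycles was itself called in 0 runs (0%; 997 runs, 4.25%, unadjusted, 2.27% positive and 1.98% negative; smallest adjusted p = 0.977). A difference over 10 points was present in 1125 runs in the first cycle and 1078 in the second. It was present in both in 143 runs with the same sign and in 127 runs with the opposite sign. Across runs, which are not independent replicates, the differences of both cycles had a Pearson correlation of 0.0333 over 23464 runs and 0.0460 over the 8836 runs of 10 to 90%. Correlations this weak in noisy levels are no finding.

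**Figure D2:**
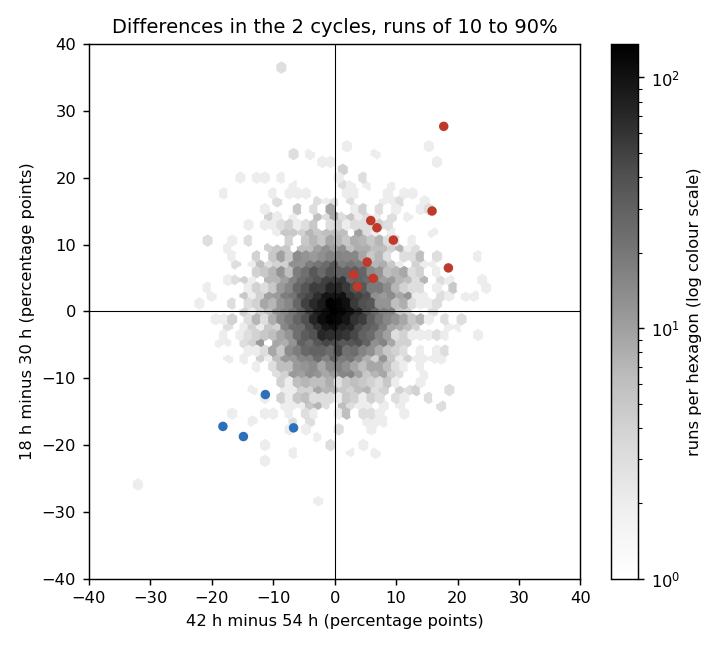
Difference of 18 h minus 30 h (vertical axis) against 42 h minus 54 h (horizontal axis), both in percentage points, for the 8836 runs of 10 to 90%; grey shading counts runs on a log colour scale, and 20 runs beyond 40 points are not drawn. The cloud is round about 0, and the 14 runs whose sets do not overlap (red, higher at 18 and 42 h; blue, lower) lie where they do by their choice, since sets that do not overlap in 6 against 6 libraries give both cycles the same sign.

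The runs with the smallest p, and those with the largest mean difference among runs without overlap, are described next. They are the extremes of 23464 tests that none of them passed. They were picked for their difference, which is therefore no finding of itself. Of these 25 runs, 13 were higher and 12 lower at 18 and 42 h, and the sets did not overlap in 15 of them, 10 higher and 5 lower; 12 were at a gene start, 10 within a gene and 3 outside.

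The smallest p belonged to a run of 9 positions at the start of Hrh1, which encodes the histamine H1 receptor, a Gq-coupled receptor (chr6:114397340-114397552 of mm10, with its middle at -490 bp from the start). Its level was 64.7%, 60.3% and 64.6% at 18 h and 67.8%, 58.3% and 63.9% at 42 h, against 77.7%, 76.7% and 72.5% at 30 h and 74.5%, 75.3% and 74.0% at 54 h. All 6 libraries of 18 and 42 h lay below all 6 of 30 and 54 h, in both cycles. The means were 63.3% ± 3.44 at 18 and 42 h and 75.1% ± 1.88 at 30 and 54 h (SD, n = 6 each), a difference of -11.9 points (SE 1.41; limma, unadjusted p = 1.11e-05, adjusted p = 0.260). At the times not used to pick it, the run averaged 71.4% ± 9.01 (12 h), 68.2% ± 9.69 (24 h), 68.3% ± 2.01 (36 h), 69.6% ± 10.2 (48 h) and 71.7% ± 5.03 (60 h) (SD, n = 3 each). Single libraries of those times spread from 57.6% to 79.8%, which spans both sets.

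The next lowest p was at Zfp42, also called Rex1, a zinc-finger gene used as a marker of pluripotent cells (14 positions, chr8:43307355-43307574). It was 70.8% in the lowest, 73.8% in the median and 80.1% in the highest library of 18 and 42 h, against 78.8%, 80.9% and 83.4% at 30 and 54 h. Only the 18 h replicate 1 reached into the range of the other set. The difference was -6.96 points (SE 1.03; limma, adjusted p = 0.786). Without that replicate the adjusted p was 0.0808 with limma, the smallest of any fit of this difference. The run was picked for its small p, and the replicate left out is the one that goes against the difference. The lower value is therefore no support for it.

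Insyn2a, an inhibitory synapse gene, had the widest lower difference among runs without overlap and a much longer run (73 positions at its start, chr7:134938015-134938367). It was 23.8%, 31.8% and 29.1% at 18 h and 17.3%, 22.7% and 26.4% at 42 h, against 32.4%, 60.8% and 43.3% at 30 h and 41.8%, 38.8% and 40.3% at 54 h. The closest pair was 31.8% at 18 h and 32.4% at 30 h, so the sets were separated by less than a point. The difference was -17.7 points (SE 3.76; limma, adjusted p = 0.972). Over the 15 libraries of the other times the level ran from 8.09% to 63.3%, wider than in either set.

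Other lower runs were spread over unrelated genes. Olfr550, an olfactory receptor, stood at 59.4% ± 7.62 at 18 and 42 h and 76.2% ± 4.55 at 30 and 54 h, without overlap. Efcab9, a calcium sensor of the sperm CatSper channel, stood at 47.3% ± 3.25 at 18 and 42 h and 57.2% ± 3.28 at 30 and 54 h. Slc38a8, an amino acid transporter, had 33.8% ± 5.99 at 18 and 42 h and 48.5% ± 7.81 at 30 and 54 h in a run 1859 bp outside the gene. The sets overlapped at Efcab9 and at Slc38a8. Arhgap39, Galnt3 (a starter of O-glycosylation), Tmem191c and Gde1 (a glycerophosphodiester phosphodiesterase) differed by -7.54, -7.01, -6.35 and -7.94 points. Ramp3, a receptor-modifying protein, and Cyp4x1, a cytochrome P450, completed the 5 largest of the 11 lower runs without overlap. They stood at 12.9% ± 2.58 and 2.28% ± 1.72 at 18 and 42 h, against 24.9% ± 12.9 and 10.8% ± 6.63 at 30 and 54 h (SD, n = 6 each throughout). The Ramp3 difference was -12.0 points, and -6.71 without 30 h replicate 2. The adjusted p of every run in this paragraph was 0.972 with limma.

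Among the leading runs higher at 18 and 42 h, Six2 and Pde8a had the most positions, 83 and 115, and both are at gene starts. Six2 is a homeobox gene that maintains kidney progenitor cells, and Pde8a encodes a phosphodiesterase that breaks down cAMP. Their promoter windows are shown because the difference lies over the start itself. Those of Mcts2, an imprinted retrogene described below, and of the clock gene Arntl, whose window was low in both sets, are shown too. The sequences are those of RefSeq for GRCm38.p6, from 250 bases before the start to 50 bases from it onwards, on the strand of the gene. Capitals mark the bases with a level in all 12 libraries; a CpG can be measured at its C, its G or both.
Six2, chr17:85688205-85688504, minus strand: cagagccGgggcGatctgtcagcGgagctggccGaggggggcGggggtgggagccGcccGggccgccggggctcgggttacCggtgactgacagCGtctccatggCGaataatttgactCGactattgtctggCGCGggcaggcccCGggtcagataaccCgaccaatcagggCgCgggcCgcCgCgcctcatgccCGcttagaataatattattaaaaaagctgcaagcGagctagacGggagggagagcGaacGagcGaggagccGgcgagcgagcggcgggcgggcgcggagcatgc
Pde8a, chr7:81213015-81213314, plus strand: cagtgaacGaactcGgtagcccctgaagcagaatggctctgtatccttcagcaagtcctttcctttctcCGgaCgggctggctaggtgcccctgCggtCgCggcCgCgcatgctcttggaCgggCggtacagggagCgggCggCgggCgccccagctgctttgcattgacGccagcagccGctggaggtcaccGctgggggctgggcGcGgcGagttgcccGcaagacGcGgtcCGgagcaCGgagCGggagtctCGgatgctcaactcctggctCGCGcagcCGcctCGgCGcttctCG
Mcts2, chr2:152686898-152687197, plus strand: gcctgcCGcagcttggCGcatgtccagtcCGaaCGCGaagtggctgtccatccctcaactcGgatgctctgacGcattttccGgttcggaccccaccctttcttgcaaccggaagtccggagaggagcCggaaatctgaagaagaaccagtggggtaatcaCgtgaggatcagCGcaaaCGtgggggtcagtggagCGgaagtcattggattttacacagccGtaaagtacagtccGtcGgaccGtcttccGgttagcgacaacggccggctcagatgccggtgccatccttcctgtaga
Arntl, chr7:113207261-113207560, plus strand: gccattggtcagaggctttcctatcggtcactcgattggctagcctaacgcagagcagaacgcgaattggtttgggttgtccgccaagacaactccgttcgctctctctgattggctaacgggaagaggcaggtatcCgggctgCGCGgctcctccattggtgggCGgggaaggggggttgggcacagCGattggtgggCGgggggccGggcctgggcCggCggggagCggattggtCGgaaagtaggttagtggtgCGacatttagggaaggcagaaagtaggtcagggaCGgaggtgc
These windows held 37, 34, 25 and 22 CpG sites with 34, 45, 26 and 21 measured bases. Over the measured bases alone, Six2 averaged 63.8% ± 5.03 at 18 and 42 h and 55.9% ± 4.10 at 30 and 54 h, and Pde8a 34.4% ± 4.11 at 18 and 42 h and 28.4% ± 4.39 at 30 and 54 h (SD, n = 6 each). Arntl averaged 5.07% ± 2.70 at 18 and 42 h and 2.60% ± 1.20 at 30 and 54 h over its window, which was not tested apart from the run it belongs to.

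Over the whole Six2 run (chr17:85688081-85688642) the level was 59.1%, 64.5% and 62.5% at 18 h and 56.9%, 60.5% and 57.5% at 42 h, against 45.9%, 53.7% and 49.0% at 30 h and 52.5%, 47.6% and 54.1% at 54 h. The sets did not overlap, with 56.9% as the lowest library of 18 and 42 h and 54.1% as the highest of 30 and 54 h. The difference was 9.70 points (SE 1.78; limma, adjusted p = 0.972), 12.5 points in the first cycle and 6.89 in the second. Between the sampled phases the run averaged 55.3% (12 h), 61.6% (24 h), 55.1% (36 h), 58.4% (48 h) and 54.8% (60 h). The means of 24 and 48 h were above that of 42 h, 58.3%. Single libraries of those other times ran from 46.6% to 64.9%, which reaches into both sets.

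The Pde8a run (chr7:81213023-81213612) was 37.9%, 37.7% and 39.5% at 18 h and 39.8%, 31.3% and 40.4% at 42 h, against 29.1%, 22.8% and 32.7% at 30 h and 30.6%, 29.8% and 35.5% at 54 h. A single library of 42 h lay within the range of 30 and 54 h. The difference was 7.69 points (95% interval 4.32 to 11.1; limma, adjusted p = 0.972).

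The widest higher difference without overlap lay 1166 bp outside Sik1, a salt-inducible kinase that acts on CREB coactivators and is known from the mouse to restrain light-driven shifts of the clock. Its run of 8 positions (chr17:31856970-31857222) was 72.2%, 87.6% and 90.7% at 18 h and 91.0%, 75.4% and 80.4% at 42 h, against 67.5%, 56.5% and 43.4% at 30 h and 71.5%, 59.8% and 62.2% at 54 h. The gap between the sets was below 1 point. The difference was 22.7 points (SE 5.01; limma, adjusted p = 0.972), and at 12, 24, 36, 48 and 60 h the run averaged 82.0%, 64.9%, 70.6%, 77.3% and 67.7%.

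The other higher runs again belonged to genes of varied function. Ttc9c, which had the smallest p in this direction, stood at 19.5% ± 1.68 at 18 and 42 h and 13.2% ± 1.93 at 30 and 54 h. Hoxd9, a homeobox gene of limb and trunk patterning, stood at 22.8% ± 7.24 at 18 and 42 h and 10.2% ± 3.08 at 30 and 54 h. Ints5, a subunit of the Integrator complex, differed by 15.4 points (SE 3.61). None of these had overlapping sets, and the same held for Hs3st3b1 (a heparan sulfate sulfotransferase), Plppr2, Hsd17b1 (a steroid dehydrogenase that makes oestradiol), Theg (a spermatid gene) and Zfp61, with differences of 5.61, 4.13, 9.73, 10.1 and 3.70 points. At Fezf1, a zinc-finger gene of olfactory development, and Pcdh9, a protocadherin, the sets overlapped and the differences were 5.94 and 4.57 points. Limma gave an adjusted p of 0.972 for each of these runs.

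**Figure D3:**
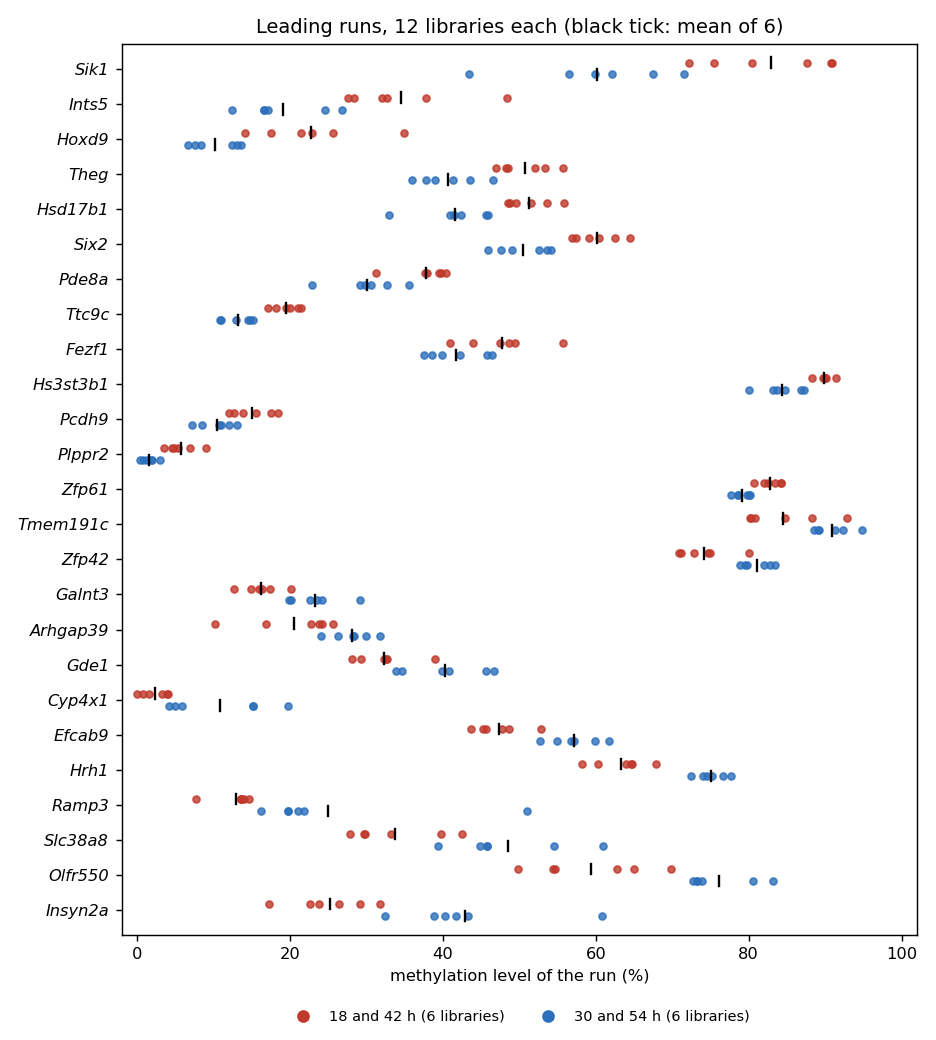
Methylation level in percent of the 25 leading runs in each library, with 18 and 42 h (red) above 30 and 54 h (blue) for each gene and black ticks at the mean of 6. Genes run from the largest positive difference at the top (Sik1) to the largest negative one at the bottom (Insyn2a), and the sets are separate in 15 runs.

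**Figure D4:**
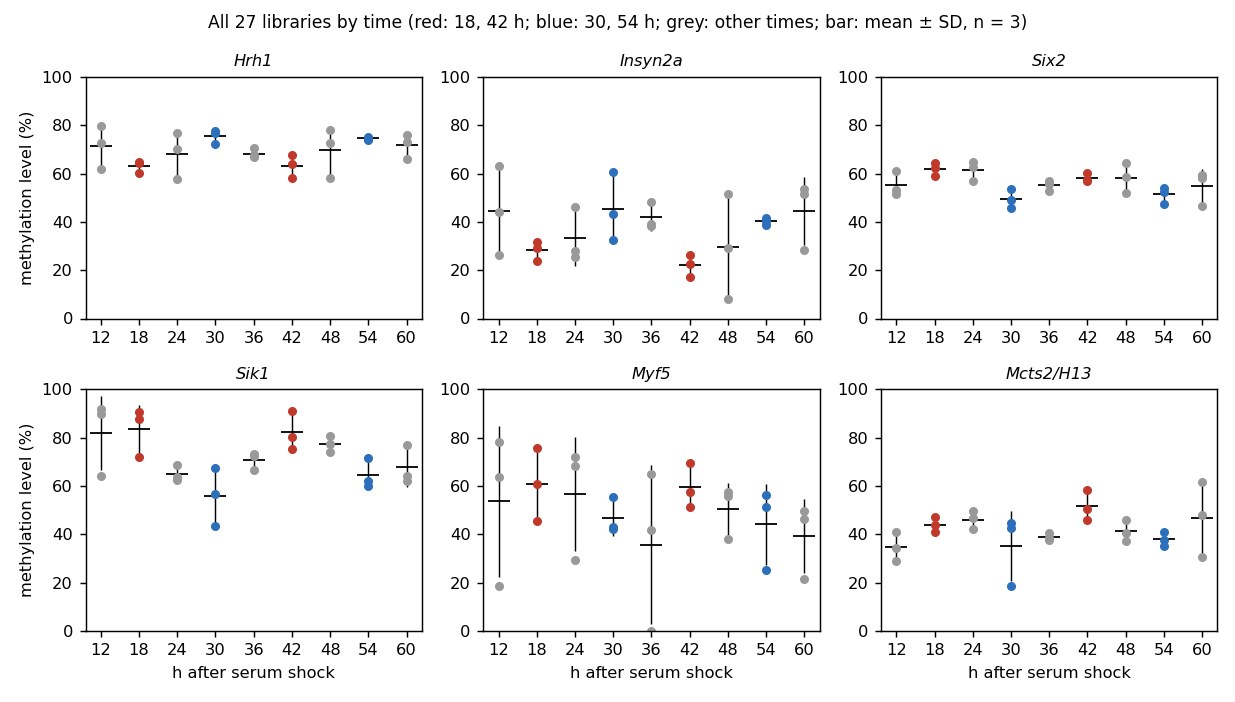
Level in percent of 6 runs in all 27 libraries by hours after the serum shock, with 18 and 42 h in red, 30 and 54 h in blue, other times in grey and bars for mean ± SD (n = 3). Against 30 and 54 h, Hrh1 is low at 18 and 42 h and Six2 is high there. Libraries of the grey times span both sets at Hrh1, Insyn2a and Myf5, and they reach into both sets at Six2, Sik1 and Mcts2/H13.

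Clock genes had mostly low levels in both sets. Of 20 genes in the core clock list, 19 had at least 1 run within 2000 bp and 42 runs in all. Their differences ran from -6.56 to 4.20 points. Their median level was 4.39%, against 5.78% over all runs, and their median difference was -0.00240 points, against 0.14 over all runs. Of the 42 runs, 11 had a mean level of 10 to 90%. Among these, a Rorb run stood at 74.0% at 18 and 42 h and 77.4% at 30 and 54 h. An Arntl run of 15 positions, with its middle at -726 bp from the start, stood at 20.4% and 22.2% in that order. None of the 42 was called by limma and none reached an unadjusted p of 0.05 (4.46% of all runs did), and 30 of the 42 had a 95% interval within 5 points of 0. Arntl, the gene of BMAL1, was at 2.24%, 2.93% and 2.58% at 18 h and 2.62%, 2.31% and 2.29% at 42 h, against 2.32%, 4.24% and 1.29% at 30 h and 3.32%, 1.87% and 2.07% at 54 h, in a run of 65 positions at its start. The libraries of 18 and 42 h all lay inside the range of 30 and 54 h, and the difference was -0.0241 points (95% interval -1.43 to 1.38).

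Clock, the partner of BMAL1, averaged 3.51% ± 0.880 at 18 and 42 h and 3.89% ± 1.70 at 30 and 54 h. Of the Period genes, the inhibitors of that pair, Per1 averaged 2.02% ± 2.02 at 18 and 42 h and 2.81% ± 2.21 at 30 and 54 h, Per2 3.05% ± 2.40 at 18 and 42 h and 2.01% ± 1.01 at 30 and 54 h, and Per3 4.88% ± 0.670 at 18 and 42 h and 5.08% ± 1.25 at 30 and 54 h. The Per1 and Per2 runs overlap a gene body but touch no stretch around a listed RefSeq start. The middle of the Per1 run lay at -3822 bp from the nearest start listed, and the Per2 run had no distance to one. Whether these runs lie at the true 5' ends of the genes was not checked. The cryptochromes, partners of the Period proteins, were low as well, with Cry1 at 3.99% ± 1.57 at 18 and 42 h and 4.61% ± 0.951 at 30 and 54 h and Cry2 at 1.36% ± 0.618 at 18 and 42 h and 1.83% ± 2.11 at 30 and 54 h. Nr1d1 and Nr1d2 encode the REV-ERB repressors of Arntl. Nr1d1 averaged 3.30% ± 2.68 at 18 and 42 h and 2.50% ± 1.75 at 30 and 54 h, and the long run over the Nr1d2 start averaged 1.08% ± 0.415 at 18 and 42 h and 1.74% ± 0.826 at 30 and 54 h. A run of 6 positions before that start had the smallest p of the core clock list, with 2.97% ± 2.22 at 18 and 42 h and 1.12% ± 1.24 at 30 and 54 h (SD, n = 6 each; limma, unadjusted p = 0.136, adjusted p = 0.972).

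Muscle regulators are shown beside them. Myod1, the regulator that commits cells to muscle, was intermediate. It averaged 53.6% ± 3.14 at 18 and 42 h and 55.5% ± 4.78 at 30 and 54 h. The Myod1 run overlaps a gene body and had no distance to a listed start, so its place relative to the 5' end was not checked. Myog, which drives fusion and differentiation, stood at 83.8% ± 2.64 at 18 and 42 h and 83.4% ± 3.99 at 30 and 54 h in the run of 9 positions nearest its start. A second Myog run of 6 positions was lower, at 42.8% ± 12.7 at 18 and 42 h and 42.6% ± 7.40 at 30 and 54 h. In the 1 run shown for each of the 12 genes, no 95% interval reached beyond 7.38 points from 0. These genes had 28 runs in all, and each of the 28 intervals included 0, the widest running from -23.5 to 13.1 points in a run of 10 positions at Arntl.

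**Figure D5:**
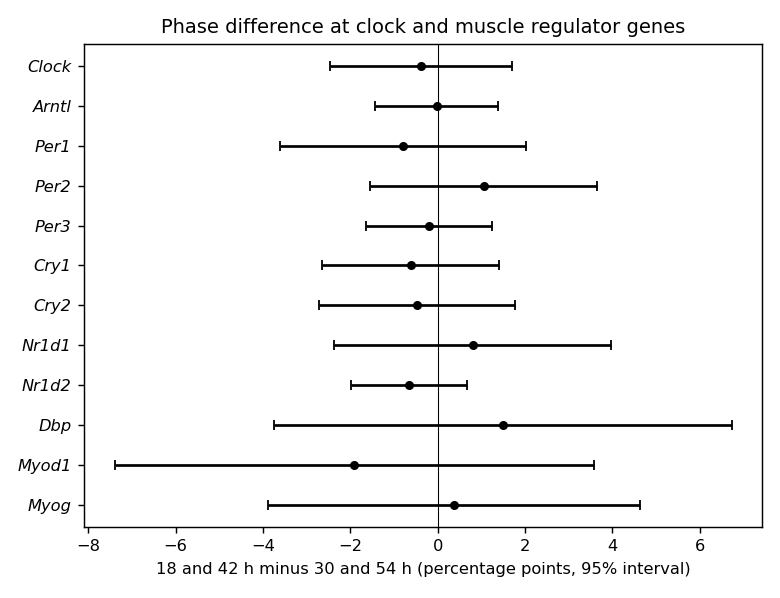
Difference between the sets (18 and 42 h minus 30 and 54 h) in percentage points at 1 run of each of 12 clock and muscle genes, with 95% intervals from limma. Every interval shown crosses 0, and the widest of these reach to 7.38 points at Myod1 and 6.73 at Dbp.

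No run of a clock output gene was called by limma. The list had 15 of 16 genes with 42 runs, a median difference of 0.279 points and 1 run at an unadjusted p under 0.05 (2.38%, against 4.46% of all runs). That run lay 609 bp outside Wee1, the kinase that holds cells before mitosis. It was 1.85% in the lowest, 3.21% in the median and 13.2% in the highest library of 18 and 42 h, against 0%, 0% and 1.70% at 30 and 54 h, which was without overlap but rested on 6 positions of low level (limma, unadjusted p = 0.0259, adjusted p = 0.972). The difference was 4.70 points, and 3.05 without 18 h replicate 1. In a run of 14 positions at its start, Dbp, a bZIP factor and a direct clock target, was at 0% in 5 of 6 libraries of 18 and 42 h and at 15.6% in the remaining one, against 0% to 3.07% at 30 and 54 h. Its other 4 runs averaged 3.06% to 10.2% at 18 and 42 h and 3.40% to 6.53% at 30 and 54 h.

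Because CLOCK and BMAL1 bind the E-box CACGTG, which holds a CpG, levels within E-boxes were also examined, after the rest of the design was laid down. The motif reads the same on both strands and occurred in 2243 of 31396 RefSeq promoter windows on autosomes (7.14%). Measured bases lay within E-boxes of 669 windows and numbered 884. Their median level was 2.44% at 18 and 42 h and 2.23% at 30 and 54 h, and their median difference was 0.0209 points, against 0.110 over the 203289 measured bases of all windows. Limma called 0 of the 884, and 33 (3.73%) had an unadjusted p under 0.05, against 3.19% in all windows. Windows of Ciart, a clock repressor, and Klf15, a metabolic regulator under clock control, held 3 E-boxes each, shown in capitals.
Ciart, chr3:95882179-95882478, minus strand: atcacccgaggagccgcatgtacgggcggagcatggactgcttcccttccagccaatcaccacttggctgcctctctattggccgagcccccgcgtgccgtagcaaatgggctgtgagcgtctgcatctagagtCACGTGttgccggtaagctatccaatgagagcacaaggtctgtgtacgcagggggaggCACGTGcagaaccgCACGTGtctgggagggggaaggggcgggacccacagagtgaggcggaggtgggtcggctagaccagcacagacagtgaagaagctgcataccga
Klf15, chr6:90462326-90462625, plus strand: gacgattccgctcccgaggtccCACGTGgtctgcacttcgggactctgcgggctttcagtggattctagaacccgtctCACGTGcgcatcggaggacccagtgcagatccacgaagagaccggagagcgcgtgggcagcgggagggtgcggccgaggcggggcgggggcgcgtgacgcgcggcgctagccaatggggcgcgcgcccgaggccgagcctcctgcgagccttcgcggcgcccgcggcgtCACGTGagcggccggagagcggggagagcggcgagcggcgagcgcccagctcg
At the 3 Ciart sites, at -42, -56 and -113 bases from the start, the measured base stood at 1.33% ± 1.16, 1.96% ± 1.34 and 4.80% ± 2.99 at 18 and 42 h, against 0.970% ± 0.735, 1.63% ± 1.15 and 5.35% ± 3.76 at 30 and 54 h. The sets overlapped at each site. Whether the deposited levels were smoothed over neighbouring bases is unknown, and bases 1 bp apart differed by 0.0689 points on average, so a level at 1 base may hold that of its neighbours. Klf15 was measured at the E-box -169 bases from its start, with 23.7% ± 11.2 at 18 and 42 h and 26.4% ± 9.57 at 30 and 54 h, and at the one over its start, with 31.9% ± 3.34 at 18 and 42 h and 35.2% ± 3.12 at 30 and 54 h (limma over all positions, unadjusted p = 0.0409, adjusted p = 0.938). The whole Klf15 window averaged 25.2% ± 2.51 at 18 and 42 h and 29.1% ± 2.39 at 30 and 54 h (SD, n = 6 each), and it was not tested by itself. The run of 101 positions over the start averaged 28.6% ± 1.87 at 18 and 42 h and 30.4% ± 2.29 at 30 and 54 h. Its difference was -1.78 points (limma, unadjusted p = 0.202, adjusted p = 0.972). Other Klf15 runs differed by 0.351, 7.17, -1.48 and 6.76 points.

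The muscle lists gave no call either. Myogenic regulators (17 of 23 genes, 37 runs) had a median level of 7.69% and a median difference of 0.297 points, and sarcomere genes (15 of 32 genes, 26 runs) had 14.5% and 0.693 points. No run of either list reached an unadjusted p of 0.05, which 4.46% of all runs did. The smallest p among the regulators was at the start of Myf5, a determination factor of myoblasts, in a run of 8 positions. It was 60.9%, 75.8% and 45.3% at 18 h and 57.4%, 69.4% and 51.4% at 42 h, against 55.3%, 42.3% and 42.8% at 30 h and 51.3%, 25.0% and 56.2% at 54 h. The sets overlapped from 45.3% to 56.2%, and the difference of 14.6 points had a 95% interval of -0.122 to 29.2. Without 54 h replicate 2 it was 9.36 points. Tpm2, a tropomyosin, led the sarcomere list with 0.952% ± 0.785 at 18 and 42 h and 2.31% ± 1.24 at 30 and 54 h.

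Metabolic genes, which include many known targets of the clock in muscle, gave no call. Glucose metabolism (31 of 35 genes, 82 runs) had a median difference of 0.131 points with 1 run higher and 1 lower at an unadjusted p under 0.05 (2.44%, against 4.46% of all runs), and lipid and mitochondrial metabolism (28 of 32 genes, 61 runs) had 0.321 points with none in either direction. Irs1, the insulin receptor substrate, led the glucose list, with 4.45% ± 1.56 at 18 and 42 h and 2.40% ± 0.544 at 30 and 54 h. Acadl, a dehydrogenase of fatty acid oxidation, led the lipid list, with 18.5% ± 8.24 at 18 and 42 h and 10.1% ± 6.06 at 30 and 54 h. The adjusted p of both was 0.972 with limma.

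The enzymes and readers of DNA methylation (16 of 20 genes, 45 runs) had a median difference of -0.0784 points, with no run at an unadjusted p under 0.05. Gadd45b, which is linked to active demethylation, came closest, at 6.59% ± 2.40 at 18 and 42 h and 4.03% ± 1.06 at 30 and 54 h (unadjusted p = 0.0507). Serum-responsive immediate-early genes (25 of 26 genes, 85 runs) had 0.0916 points, with 3 runs higher and 2 lower at that threshold (5.88%, against 4.46% of all runs). Junb, a subunit of the AP-1 factor, had 1.07% ± 0.744 at 18 and 42 h and 4.10% ± 2.19 at 30 and 54 h. Cell cycle genes (29 of 33 genes, 69 runs) had 0.298 points with 1 run higher and none lower (1.45%, against 4.46% of all runs). That run was at Ccne1, the cyclin of entry into S phase, with 78.4% ± 4.06 at 18 and 42 h and 70.8% ± 4.42 at 30 and 54 h.

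Imprinted genes, which carry methylation on 1 parental copy, were of intermediate level. They comprised 32 of 40 genes with 51 runs, a median level of 42.1% and a median difference of 0.124 points. At an unadjusted p under 0.05, 4 of the 51 runs were higher and 1 lower (9.80%, against 4.46% of all runs), and neighbouring runs of 1 cluster are not independent. Of the 51 runs, 41 had a mean level of 10 to 90%, a class in which 6.64% of runs reached that threshold. The smallest p was at the promoter of Mcts2, a retrogene inside an intron of H13, shown above. Its run (chr2:152686813-152687149, 38 positions) was 47.0%, 40.8% and 43.8% at 18 h and 58.3%, 50.6% and 45.7% at 42 h, against 44.6%, 18.6% and 42.5% at 30 h and 40.9%, 37.6% and 35.0% at 54 h. The sets overlapped, and the library at 18.6% lay far below the rest. The difference was 11.2 points (SE 3.78; limma, unadjusted p = 0.0154, adjusted p = 0.972).

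Germline genes, which are kept methylated in somatic cells, had the highest median level of the lists, 80.3% (14 of 21 genes, 22 runs). Their differences ran from -21.5 to 7.73 points, and 4 of the 22 runs had a 95% interval within 5 points of 0. Their median difference was -0.0855 points, with 2 runs higher and 2 lower at an unadjusted p under 0.05 (18.2%, against 4.46% of all runs). Of the 22 runs, 18 had a mean level of 10 to 90%, a class in which 6.64% of runs reached that threshold. Mael, a piRNA pathway gene, led the germline list, and it also had the smallest p for a difference between the cycles. Its level was 94.4%, 94.4% and 96.7% at 18 h, against 86.2%, 84.5% and 86.1% at 30 h, and 94.2%, 93.5% and 94.8% at 42 h, against 93.2%, 92.8% and 93.9% at 54 h. The libraries of 30 h stood alone below the others, by 9.56 points in the first cycle against 0.831 in the second (limma, difference between the cycles, unadjusted p = 0.000123, adjusted p = 0.977). Klf5, a Krüppel-like factor, averaged 2.68% ± 4.64 at 18 h, against 0% in all 3 libraries of 30 h, and 2.88% ± 2.67 at 42 h, against 18.5% ± 2.68 at 54 h (SD, n = 3 each). Saa4, Tmem109, Bmp1 and Syt15 followed, with first-cycle differences of 12.3, -15.3, -4.32 and -8.62 points and second-cycle differences of -3.78, 1.69, 4.80 and 8.36 points, and the same adjusted p of 0.977.

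Pluripotency genes (12 of 14 genes, 37 runs), led by Zfp42, had a median difference of 0.746 points with 1 run in each direction at an unadjusted p under 0.05 (5.41%, against 4.46% of all runs). Hox and other homeobox genes (35 of 39 genes, 106 runs) had -0.131 points with 3 runs higher and 1 lower (3.77%, against 4.46% of all runs). The smallest p of the homeobox list was at Hoxc10, with 2.89% ± 2.07 at 18 and 42 h and 10.8% ± 5.09 at 30 and 54 h over 5 positions. Markers of other cell types were included as well. Fibroblast and adipocyte genes (13 of 19 genes, 22 runs) had 0.440 points with no run at that threshold. Neural and immune genes (12 of 18 genes, 24 runs) had 0.630 points with 1 run lower (4.17%). Over all runs the share was 4.46%. Pdgfra, a receptor of fibroblast progenitors, led the fibroblast and adipocyte list at 47.3% ± 29.2 at 18 and 42 h and 23.5% ± 12.4 at 30 and 54 h. The difference was 23.8 points, and 12.9 without 42 h replicate 1, the library with the highest level, 100%. The neuronal splicing factor gene Rbfox3 led the neural and immune list at 5.11% ± 4.96 at 18 and 42 h and 11.7% ± 2.83 at 30 and 54 h. Of all 15 lists, limma called 0 runs in any.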

How the data were processed

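Per the labels, DNA was digested, bisulfite converted and sequenced; the enzyme is written there as MpsI, while RRBS commonly uses MspI. The submitters' processing notes name Trim Galore 0.4.0, cutadapt 1.9.1, Bismark 0.14.4, Bowtie2 and mm10; for settings and filters the sources used here give nothing. The authors deposited methylation levels as a fraction of 0 to 1 per position and library, without coverage, so nothing was weighted by depth. Neighbouring bases carry nearly equal values, so positions in a run are not independent.

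Levels were multiplied to percent and averaged per run. Coordinates count from 1, as checked on measured bases in RefSeq promoter windows, each counted once for every window that held it. Of these counts, 116809 fell on the C and 117037 on the G of a CpG, and 41 elsewhere. Runs were tested with limma 3.58.1 in R 4.3.3 (data.table package, version 1.17.8): phase and replicate number as a block, two-sided, Benjamini-Hochberg adjustment over all autosomal runs, threshold 0.05. The cycles used the 4 times as a factor, and library means an exact permutation test. The scripts were checked on simulated data. Genes and starts came from RefSeq GRCm38.p6, and a run belongs to a listed gene when it lies within 2000 bp of it. Named genes were the 10 runs with the smallest p in each direction, the 5 largest without overlap in each direction, the smallest p of each of 15 lists (387 genes), 12 fixed clock and muscle genes (the run nearest the start or, without a strand, the one with the most positions), and the 3 smallest p in each direction for the difference between the cycles. The comparison, its members, the lists and the named genes were chosen with earlier results of these data known. Further work was done in Python 3.11.15 with matplotlib 3.10.9, scipy 1.17.1, pandas 2.3.3 and numpy 2.4.6.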

Additional observations from a re-analysis of the deposited data

Results flagged for a closer look

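Of 112 sets of 6 libraries at named runs, 8 had a single library standing apart from the other 5 by Dixon's criterion, which chance meets in about 1 in 20 sets; of 8 sets of library means, 0 had one. At 18 and 42 h these were Pde8a, at 31.3% in 42 h replicate 2 (others 37.7% to 40.4%), Ramp3, at 7.67% in 18 h replicate 2 (others 13.6% to 14.7%), and Dbp, at 15.6% in 42 h replicate 1 (others 0%). At 30 and 54 h, Ramp3 was at 51.0% in 30 h replicate 2 (others 16.2% to 21.8%) and Mcts2/H13 at 18.6% in the same library (others 35.0% to 44.6%). Also at 30 and 54 h, Clock was at 7.16% in 30 h replicate 3 (others 2.29% to 4.07%), Per3 at 7.49% in 54 h replicate 3 (others 3.93% to 5.11%) and Cry2 at 5.96% in 54 h replicate 1 (others 0% to 1.63%).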

How the results depend on the processing

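In 26 other fits of the difference between the sets and 42 of the cycles, limma called 0 runs; the smallest adjusted p lay between 0.0808 and 0.984 for the sets, and was 0.0573 for 18 minus 30 h, 0.123 for 42 minus 54 h and 0.302 for the difference between the cycles. Without the replicate block, 0 runs were called with limma (smallest adjusted p = 0.193). Across runs of 10 to 90%, same-numbered libraries of different times had deviations correlated at -0.0284 to 0.0211, and other pairs at -0.0293 to 0.0301. This measure cannot see a shift of a whole library, so it does not settle whether the numbers mark pairs. The main fits and the permutation tests kept the number as a block. In mean level over all runs, replicate 1 was the lowest library at 7 of 9 times, and over runs above 90% at 8 of 9. Library means kept an adjusted p between 0.185 and 0.963. The mean difference of runs over 90% became -0.00296 points when each position weighed the same, and spanned -0.0180 to 0.155 with 1 library left out. The correlation of the cycles over all runs was 0.0120 on the M-value scale (a log2 ratio) and 0.00522 to 0.0616 with 1 library left out, and over runs of 10 to 90% it was 0.0121 to 0.0761.

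Of 56 named runs under 1352 recomputations, 0 were called and 13 changed sign in 39; none was recomputed with single positions as the unit. On the M-value scale (log2 units) these were Bmp1 at -0.0823, Arntl at 0.0400 and Dbp at -0.127. With gaps of at most 50 bp they were Syt15 at 0.246 points, Arntl 0.552, Per1 1.88 and Nr1d1 -0.219, and with gaps of 200 bp Nr1d2 -0.532, Wee1 -0.619 and Junb 0.0580. Myog was at -0.528 with medians and Arntl at 0.237 with all 27 libraries. With 1 library left out, the differences spanned -0.900 to 1.17 for Bmp1, -1.95 to 1.41 for Syt15, -0.269 to 0.324 for Arntl, -0.282 to 1.71 for Nr1d1, -0.946 to 2.94 for Dbp, -0.480 to 1.70 for Myog, -0.740 to 0.373 for Clock, -0.575 to 0.199 for Per3 and -0.828 to 0.453 for Cry2. The cause of these changes was not tested. The depth behind a level is unknown, and short runs of intermediate level set the widest limits.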
